A study of Mus musculus with 12 samples.

Results

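The miR-29 virus was compared with an empty virus for its effect on the response of mouse cortical cultures to oxygen-glucose deprivation (OGD). The measure was the interaction, the OGD response under the miR-29 virus minus the OGD response under the empty virus, on the log2 scale. A positive interaction means that OGD moved a gene upward, relative to sham, more under the miR-29 virus than under the empty virus. Of the 12 libraries of the series, 11 entered the comparison, since the column labelled sham-empty replicate 3 did not hold read counts.

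Cultures were made from the cortex of C57BL6 embryos at E16.5 to E17.5, and all of them received a lentivirus on day 6 in vitro, given 2 times at a multiplicity of infection of 1. The sham-empty group (n = 2) carried the empty virus and was rinsed in the OGD buffer but kept in normal oxygen. OGD-empty (n = 3) carried the empty virus and went through 3 h of OGD on day 14 in vitro and 4 h of recovery. The sham-miR-29 (n = 3) and OGD-miR-29 (n = 3) groups carried a virus for miR-29c, with the same sham or OGD treatment. No group was left without virus, so every comparison is between infected cultures. The labels name neither the promoter of the virus nor the cell types it infects. Replicate numbers mark days of dissection, so that libraries with the same number share a day.

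OGD withholds oxygen and glucose together and serves as a culture model of ischemia. Without them, oxidative phosphorylation and glycolysis cannot supply ATP, ion gradients run down, and glutamate accumulates outside the cells and activates its receptors. miR-29 is a family of microRNAs that rises as neurons mature. It guides Argonaute to 3′ untranslated regions (3′ UTRs) that pair with its seed, and such mRNAs are degraded or translated less. Reported targets include DNA methylation enzymes, collagens and pro-apoptotic BH3-only genes.

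The mature 3p strands of the family are shown because their shared seed, bases 2 to 8 in capitals, defines the sites searched for below. They are from RefSeq (GRCm38.p6), 5′ to 3′.
mmu-miR-29a-3p: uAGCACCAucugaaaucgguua
mmu-miR-29b-3p: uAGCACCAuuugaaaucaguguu
mmu-miR-29c-3p: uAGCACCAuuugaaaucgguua
All 3 carry the seed AGCACCA, and the virus was labelled miR-29c. The matching site in a 3′ UTR reads TGGTGCT. Sites of 29 bases with these 7 letters in capitals follow for a demethylation enzyme, a DNA methyltransferase, an NMDA receptor subunit and a glutamate transporter whose values are given below (GENCODE M21, GRCm38).
Tet2, chr3:133466174-133466180, minus strand: ggtgttaacattaaaTGGTGCTacaaatg
Dnmt3a, chr12:3911474-3911480, plus strand: agcggggtcccaagcTGGTGCTaattcct
Grin2b, chr6:135719800-135719806, minus strand: tggccattttctcttTGGTGCTattctca
Slc1a2, chr2:102788472-102788478, plus strand: ttcagcatcaaggaaTGGTGCTgactgct
In the longest annotated 3′ UTR, Tet2 held 5 such sites, Dnmt3a 5, Grin2b 2 and Slc1a2 1.

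Depth was uneven. Counts summed over all rows were 1337564 to 6616920 per library, and 231500 to 1362484 without the rows of the mitochondrial genome, with the sham-empty libraries the 2 lowest (231500 and 379010). Along the first principal component (46.2% of the variance) the 3 OGD-empty libraries lay at one end. The region in which reads were counted is not stated. The left-out column matched the number of same-strand genes within the gene and 10 kb downstream, so a read may count for several genes. Neighbours were taken here on either strand, and sharing of reads between strands was not tested. In that region 59.7% of the genes had an annotated neighbour whose count was over 0.5 of their own. The value of such a gene is uncertain, and its neighbour is named beside it. Cultures are bulk samples, in which fewer cells of a type and less RNA per cell cannot be told apart.

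The OGD response of 1015 of 12119 genes differed between the viruses (edgeR's quasi-likelihood F test, Benjamini-Hochberg adjusted p under 0.05), 8.38% of those tested. The interaction was positive for 572 genes (4.72%) and negative for 443 (3.66%), and 3379 genes had an unadjusted p under 0.05. Of the positive calls matched to the annotation, 76.7% had a neighbour over 0.5 of their own count. The share was 32.5% for matched negative calls and 59.7% for all matched genes. Positive calls thus rest more often on counts that may be shared. Over all genes the median interaction was -0.03. Genes called positive had a median interaction of 1.55, with a median OGD response of -1.14 under the empty virus and 0.42 under the miR-29 virus. Genes called negative had a median of -1.70, with median responses of 1.07 and -0.61. Opposite signs of the 2 responses are favoured by choosing genes on their difference, so the medians are descriptions.

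DESeq2 called 1044 of the 6243 genes it gave an adjusted p (482 positive, 562 negative) and limma-voom 836 (555 positive, 281 negative), so the balance of directions moved with the tool. The DESeq2 shares were 16.7%, 7.72% and 9%, and those of limma-voom 6.9%, 4.58% and 2.32%. With the day of dissection as a replicate block the count was 1861 (15.4%), of which 888 (7.33%) were positive and 973 (8.03%) negative. A fit that also took out each library's trend of counts on gene length, called the length-and-day fit here, found 934 genes (7.83%), 530 positive (4.44%) and 404 negative (3.39%). Calls in each gene list below are to be read beside the share of all genes in the same fit. Leaving out sham-empty replicate 1 gave 64 genes (0.527%), and leaving out sham-empty replicate 2 gave 93 (0.766%). A lone sham-empty library was then assumed to vary like the other groups. The count was also moved by over 1.5 times when sham-miR-29 replicate 1 (647 genes) or 2 (308, 2.55%) or OGD-miR-29 replicate 2 (634, 5.25%) or 3 (439, 3.63%) was left out. Leaving out OGD-empty replicates 1, 2 and 3 gave 1323 (11%), 1516 (12.6%) and 1009 (8.37%). Of the 95 called genes that the naming rule picked, 9 and 15 stayed called when sham-empty replicate 1 and 2 were left out, and all 95 kept their direction in each fit that left out 1 library. Of the 95, 60 stayed called in the length-and-day fit and 1, Nav3, changed sign there. With either sham-empty library left out, each gene list below had 0 or 1 calls, other than those of the respiratory chain, ATP synthase and cytosolic ribosome.

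**Figure D1:**
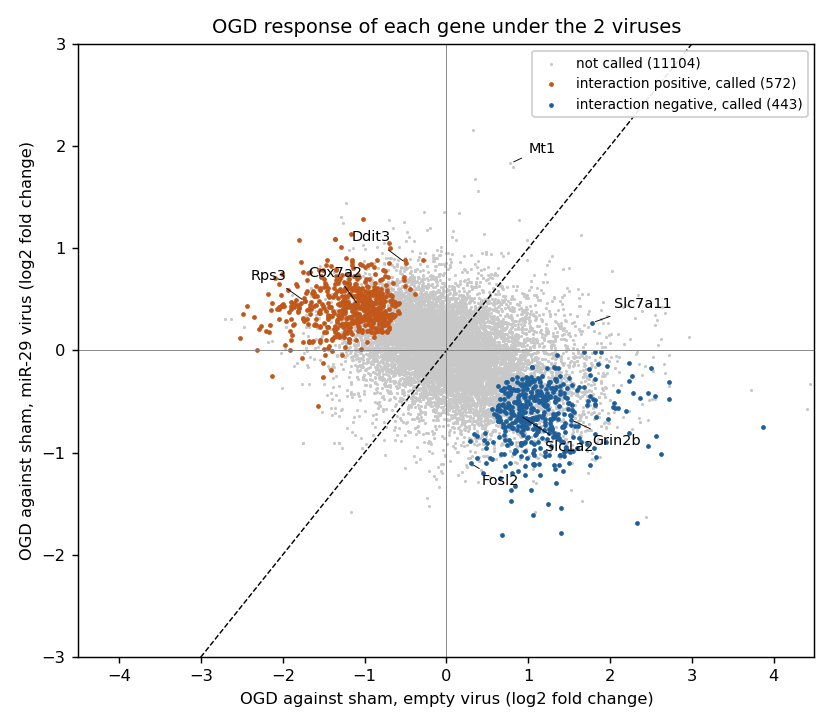
Each point is 1 of 12119 genes, with its log2 fold change of OGD against sham under the empty virus (x axis) and under the miR-29 virus (y axis). The dashed line marks equal responses. The 572 genes called positive lie above it and the 443 called negative below it, and 10 points fall outside the axes.

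Nuclear genes of the respiratory chain and ATP synthase, which make the complexes of oxidative phosphorylation in the mitochondrial inner membrane, had a positive interaction. Of 74 such genes 36 were called positive and 0 negative, against 4.72% and 3.66% of all genes, and 73 of 74 values were above 0 (median 1.21). Their lists had median gene lengths of 5.99 to 8.54 kb, and 8.67% of all genes of 3 to 10 kb were called positive. By complex the positive calls were 12 of 36 in complex I (median 1.11), 7 of 13 in complexes II and III (1.27), 8 of 11 in complex IV (1.3) and 9 of 14 in ATP synthase (1.21). In the same order 19, 6, 6 and 10 genes had a neighbour over 0.5 of their count, against 59.7% of all genes. Over the 36 genes of complex I the median OGD response was -0.83 under the empty virus and 0.22 under the miR-29 virus.

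Cox7a2, a subunit of cytochrome c oxidase (chromosome 9, 79755361 to 79759878), measured 60.7 and 49.8 CPM in sham-empty, 27.2, 24.4 and 26.3 in OGD-empty, 40.2, 33.8 and 51.2 in sham-miR-29 and 55.5, 47.7 and 67.8 in OGD-miR-29 (CPM, counts scaled by the effective library size, in replicate order). The 3 OGD-empty libraries were the lowest of the 11 and did not overlap any other group. Its OGD response was -1.08 ± 0.24 under the empty virus (adjusted p = 0.0156). Under the miR-29 virus it was 0.44 ± 0.20 and not called (adjusted p = 0.534). The interaction was 1.51 ± 0.31, adjusted p = 0.00997. Uqcr10, a small subunit of complex III (chromosome 11, 4701973 to 4704342), measured 45.8 and 30.1 CPM in sham-empty, 13.6, 19.9 and 15.5 in OGD-empty, 25.4, 18.8 and 29.3 in sham-miR-29 and 31.6, 25.2 and 51 in OGD-miR-29. Here OGD-empty replicate 2 was above the lowest sham-miR-29 library, and the other two OGD-empty libraries were the lowest of the 11. The interaction of Uqcr10 was 1.74 ± 0.40, adjusted p = 0.0157.

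Ndufv3, a subunit of the complex I module that binds NADH, measured 23.9 and 20.8 CPM in sham-empty, 11.6, 9.48 and 9.65 in OGD-empty, 17.4, 15 and 17.7 in sham-miR-29 and 24.6, 27.2 and 25 in OGD-miR-29. OGD-empty was below every other library, and the interaction was 1.69 ± 0.33, adjusted p = 0.00866. Among other subunits of complex I, Ndufb5 (1.68 ± 0.33) and Ndufa4 (1.31 ± 0.29), the latter since also assigned to complex IV, were called. Ndufb10 (1.67 ± 0.37) was called and shares its region with the ribosomal protein gene Rps2. Sdhd, a membrane anchor of succinate dehydrogenase, had 1.45 ± 0.33, adjusted p = 0.0153. Uqcrh, the hinge protein of complex III, had 1.61 ± 0.35 (neighbour Gm12854), and the core protein Uqcrc2 had 1.34 ± 0.33 (neighbour Pdzd9).

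In complex IV the subunits Cox8a (1.46 ± 0.29, adjusted p = 0.00888, neighbour Otub1), Cox6c (1.48 ± 0.32, neighbour Vps13b) and Cox4i1 (1.3 ± 0.31, neighbour Gm20388) were called as well, and Cox4i1 lost its call in the length-and-day fit (0.89 ± 0.30, adjusted p = 0.0585), where Cox8a was 0.94 ± 0.28, adjusted p = 0.0306. Atp5e, the epsilon subunit of ATP synthase, measured 32.8 and 25.5 CPM in sham-empty, 9.42, 9.94 and 6.43 in OGD-empty, 20.1, 11.9 and 22.1 in sham-miR-29 and 23.1, 31.9 and 34.1 in OGD-miR-29. All OGD-empty libraries were below all others, and the interaction was 2.39 ± 0.40, adjusted p = 0.00663, with Tubb1 as a neighbour. Atp5k (2.24 ± 0.43, neighbour Pde6b), Atp5h (2.14 ± 0.37, neighbour Ict1) and Atp5g3 (1.54 ± 0.31, neighbour Gm10822) were positive too. Of the 74 genes 26 were called positive in the length-and-day fit. The number was 3 or 7 when sham-empty replicate 1 or 2 was left out (0.395% and 0.733% of all genes) and 19 without sham-miR-29 replicate 2 (1.83%). In complex I alone 20 of 36 were called with the replicate block. The 13 proteins encoded in mitochondrial DNA had a median of -0.18, with 0 genes called by any of edgeR, DESeq2 and limma-voom and 0 at an unadjusted p under 0.05 in edgeR. Over all 12119 genes edgeR called 8.38%, and 3379 had an unadjusted p under 0.05. The lowest adjusted p of the 13 was that of mt-Nd1, a complex I subunit (0.53 ± 0.45, adjusted p = 0.460, neighbour mt-Ts1).

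**Figure D2:**
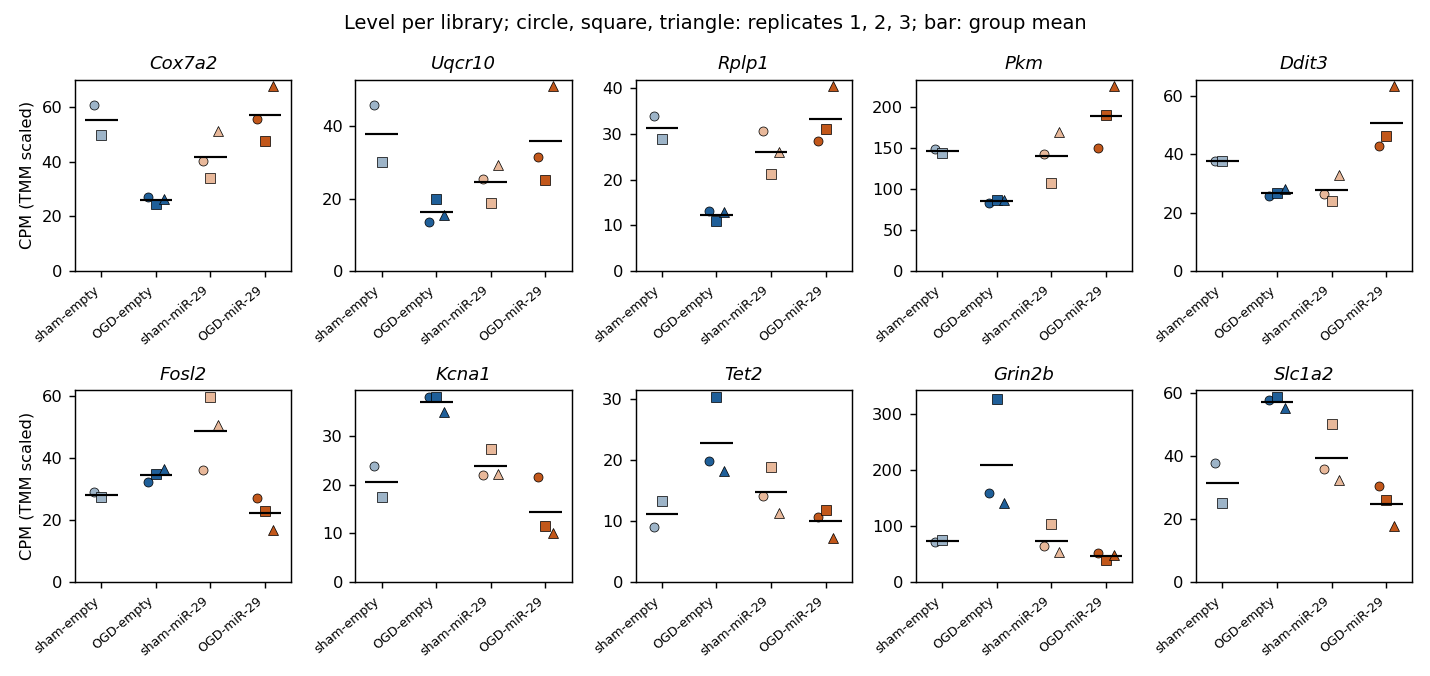
Level of 10 genes in each of the 11 libraries, in CPM, by group. Circles, squares and triangles are replicates 1, 2 and 3, and the bar is the group mean. In Cox7a2 and Rplp1 the OGD-empty libraries lie below all others, and in Kcna1, Grin2b and Slc1a2 above all others.

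Of 63 genes for proteins of the cytosolic ribosome, which translates nuclear mRNAs, 19 were called positive and 0 negative, against 4.72% and 3.66% of all genes. The median was 1.12, and 62 of 63 values were above 0. Of the 63, 40 had a neighbour over 0.5 of their count, against 59.7% of all genes. The median gene length of the 63 was 3.43 kb. Of all genes under 3 kb 12.9% were called positive, and of those of 3 to 10 kb 8.67%. Rplp1, an acidic protein of the ribosomal stalk (chromosome 9, 61913284 to 61914542), measured 33.8 and 28.9 CPM in sham-empty, 13.1, 10.8 and 12.9 in OGD-empty, 30.7, 21.1 and 26 in sham-miR-29 and 28.5, 31.1 and 40.4 in OGD-miR-29. The OGD-empty libraries did not overlap any other group, and the interaction was 1.67 ± 0.34, adjusted p = 0.00947. Rpl7, of the large subunit, measured 13.9 and 22 CPM in sham-empty, 7.41, 7.68 and 10.7 in OGD-empty, 10.6, 8.46 and 11.8 in sham-miR-29 and 18, 15.4 and 25 in OGD-miR-29, with OGD-empty replicate 3 inside the range of sham-miR-29. Its interaction was 2.03 ± 0.41, adjusted p = 0.00950. Rps3 (2.21 ± 0.38, adjusted p = 0.00663) holds the small nucleolar RNA Snord15a within its region, and Rps2 (1.62 ± 0.32) holds Snora64, so reads may be shared. When sham-empty replicate 1 or 2 was left out, 2 or 4 ribosomal protein genes were called, and the length-and-day fit called 12 positive and 1 negative.

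Mitochondrial ribosomal proteins, which translate the genes of mitochondrial DNA, had 4 positive and 1 negative calls of 65 (median 0.72), shares near the 4.72% and 3.66% of all genes, and 1 and 1 in the length-and-day fit. Mrpl15 measured 23.9 and 20.3 CPM in sham-empty, 10.7, 10.4 and 5.36 in OGD-empty, 14.4, 11.1 and 12.1 in sham-miR-29 and 13.8, 16.9 and 19.2 in OGD-miR-29, and its interaction was 1.62 ± 0.40, adjusted p = 0.0187. Every OGD-empty library of Mrpl15 was below all the others. Mrpl55 (1.02 ± 0.29, neighbour 2310033P09Rik) and Mrpl32 (2.20 ± 0.63) were also positive, whereas Mrps27 (-1.70 ± 0.45, neighbour Map1b) was negative. Mrpl55 (0.53 ± 0.28, adjusted p = 0.242) and Mrpl32 (1.81 ± 0.63, adjusted p = 0.0702) lost their calls in that fit. Of 34 proteasome subunits, which degrade tagged proteins, 2 were called positive and 0 negative (median 0.86), a positive share near that of all genes, and 10 were positive with the replicate block and 5 in the length-and-day fit. Psmb7, a catalytic subunit, had 1.13 ± 0.29, adjusted p = 0.0241, and Psma1 had 1.48 ± 0.39 (neighbour Copb1). Without sham-empty replicate 2, Psma1 was at 0.87, adjusted p = 0.349.

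Glycolysis and lactate genes had 4 positive and 1 negative calls of 23 (median 0.41), against 4.72% and 3.66% of all genes. Pkm, pyruvate kinase (chromosome 9, 59656368 to 59679375), measured 148 and 144 CPM in sham-empty, 82.3, 86.3 and 86.3 in OGD-empty, 143, 107 and 169 in sham-miR-29 and 149, 190.2 and 226 in OGD-miR-29. OGD-empty was below all other libraries, and the OGD-miR-29 libraries overlapped sham-miR-29. The interaction of Pkm was 1.21 ± 0.31, adjusted p = 0.0225. Triosephosphate isomerase Tpi1 (1.43 ± 0.37, neighbour Spsb2), aldolase Aldoa (0.98 ± 0.27) and neuronal enolase Eno2 (1.05 ± 0.30) were positive. The negative call was the monocarboxylate transporter Slc16a7 (-1.68), named after its value was seen. In the length-and-day fit Pkm (1.18 ± 0.29, adjusted p = 0.0110) and Tpi1 stayed called, whereas Aldoa (0.51 ± 0.28, adjusted p = 0.261) and Eno2 (0.73 ± 0.28, adjusted p = 0.100) did not.

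Receptors, ion channels and adhesion molecules of neurons had a negative interaction. Of 104 such genes 18 were called negative and 0 positive, against 3.66% and 4.72% of all genes, and 100 of 104 values were below 0 (median -1.75). These lists had median gene lengths of 138 to 520 kb. Among all genes of 100 to 300 kb, 13.6% were called negative (median -0.91), and among those over 300 kb 10.5% (median -1.68). Negative calls numbered 3 of 16 ionotropic glutamate receptors (median -1.78), 1 of 6 metabotropic receptors (-2.13), 2 of 11 GABA-A receptors (-1.71), 7 of 30 voltage-gated channels (-1.54) and 5 of 41 adhesion and axon guidance genes (-1.89). With the replicate block these became 6, 3, 5, 14 and 21, and DESeq2 called 54 of the 104. When sham-empty replicate 1 or 2 was left out the number was 1 or 0 (0.132% and 0.0329% of all genes), with medians of -1.94 and -1.62. The median was -1.18 without OGD-empty replicate 2 and -0.70 without replicate 2 in all groups. By list, without OGD-empty replicate 2, it was -1.11 in ionotropic, -1.33 in metabotropic and -1.19 in GABA-A receptors, -1.12 in voltage-gated channels and -1.22 in adhesion and guidance genes. The number called was 6 without sham-miR-29 replicate 2 (0.72%), 9 and 7 without OGD-miR-29 replicates 2 and 3 (1.67% and 1.31%), and 54, 55 and 31 without OGD-empty replicates 1, 2 and 3 (6.62%, 6.92% and 4.13%). The summed level of 12 neuron markers was also highest in OGD-empty (1275 to 1663 CPM, against 899 to 1214 in the other groups). The markers were divided, however. With OGD, 6 rose under the empty virus and fell under the miR-29 virus, and 6 did the reverse. Their median OGD response under the empty virus was 0.08. The part of neuron content in the result was not tested.

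Grin2b, the NMDA receptor subunit prominent in developing cortex (chromosome 6, 135713233 to 136173511), measured 70.6 and 74.7 CPM in sham-empty, 158, 327 and 141 in OGD-empty, 62.9, 103 and 53 in sham-miR-29 and 51.3, 37.8 and 47.1 in OGD-miR-29. All 3 OGD-empty libraries were above every other library, with replicate 2 far above the rest, and the OGD-miR-29 libraries were below all others. The OGD response was 1.52 ± 0.37 under the empty virus (adjusted p = 0.0331). Under the miR-29 virus it was -0.68 ± 0.31 and not called (adjusted p = 0.541). The interaction was -2.20 ± 0.48, adjusted p = 0.0176. The AMPA receptor subunits Gria2 (-1.30 ± 0.36) and Gria3 (-2.24 ± 0.59) were also negative. Grm3, a metabotropic receptor, had -2.18 ± 0.46 with 9330182L06Rik as a neighbour.

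The GABA-A receptor subunits Gabrb2 (-1.79 ± 0.39, adjusted p = 0.0121) and Gabra2 (-1.94 ± 0.45, adjusted p = 0.0168) were negative. Scn2a1, a sodium channel of axons, measured 35.8 and 36.5 CPM in sham-empty, 65.3, 81.7 and 62.7 in OGD-empty, 43.6, 41.1 and 38.8 in sham-miR-29 and 33.1, 22.4 and 34.1 in OGD-miR-29. Its OGD-empty libraries lay above and its OGD-miR-29 libraries below all the others, with an interaction of -1.41 ± 0.31, adjusted p = 0.0123. The calcium channel Cacna1e (-2.25 ± 0.54) was called too. Kcna1, a potassium channel whose gene is only 5.99 kb long (chromosome 6, 126640397 to 126646384), measured 23.9 and 17.4 CPM in sham-empty, 38, 37.9 and 34.8 in OGD-empty, 22, 27.3 and 22.1 in sham-miR-29 and 21.5, 11.4 and 10.1 in OGD-miR-29. The OGD-empty libraries of Kcna1 were the highest of the 11, and the interaction was -1.53 ± 0.39, adjusted p = 0.0232.

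Among adhesion and guidance genes, the presynaptic adhesion molecule Nrxn2 (-1.56 ± 0.32, adjusted p = 0.0101), the semaphorin receptor Plxna2 (-1.65 ± 0.36), the adhesion molecule Ncam1 (-1.61 ± 0.38) and the ephrin receptor Epha5 (-2.25 ± 0.53) were called negative. Epha5 measured 43.8 and 46.9 CPM in sham-empty, 86.9, 216 and 89.5 in OGD-empty, 39.8, 71.5 and 42.2 in sham-miR-29 and 31.2, 26.4 and 34.6 in OGD-miR-29. The OGD-empty libraries were above all others, replicate 2 at more than 2 times the level of the next. Of 20 genes of synaptic vesicle release 2 were called negative and 0 positive (median -0.50), against 3.66% and 4.72% of all genes. With the replicate block 7 were negative, against 8.03% of all genes. The 2 called as fitted were Bsn, a scaffold of the active zone (-1.82 ± 0.43, adjusted p = 0.0175), and Syt1, the calcium sensor of release (-1.97 ± 0.50, adjusted p = 0.0295).

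The interaction followed the length of the gene. Its median was 0.54 for 1703 genes under 3 kb, 0.49 for 3 to 10 kb, 0.21 for 10 to 30 kb, -0.30 for 30 to 100 kb, -0.91 for 100 to 300 kb and -1.68 for 503 genes over 300 kb. In the same order of classes, 12.9%, 8.67%, 3.94%, 1.45%, 0.0724% and 0% were called positive. Negative calls made up 0.881%, 0.667%, 1.34%, 3.75%, 13.6% and 10.5%. Across 11930 genes the Spearman correlation with length was -0.52 for the interaction, 0.53 for the OGD response under the empty virus and -0.32 under the miR-29 virus. Genes are not independent replicates and share libraries, so these are descriptions. Genes of at least 100 kb held 19.5% and 18.3% of the counts outside mitochondrial rows in sham-empty, 25.6%, 43.3% and 26.6% in OGD-empty, 17.8%, 23.02% and 17.3% in sham-miR-29 and 16.49%, 15.8% and 14.4% in OGD-miR-29. The share was highest in the OGD-empty libraries and lowest in OGD-miR-29, and OGD-empty replicate 2 stood far above the rest.

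**Figure D3:**
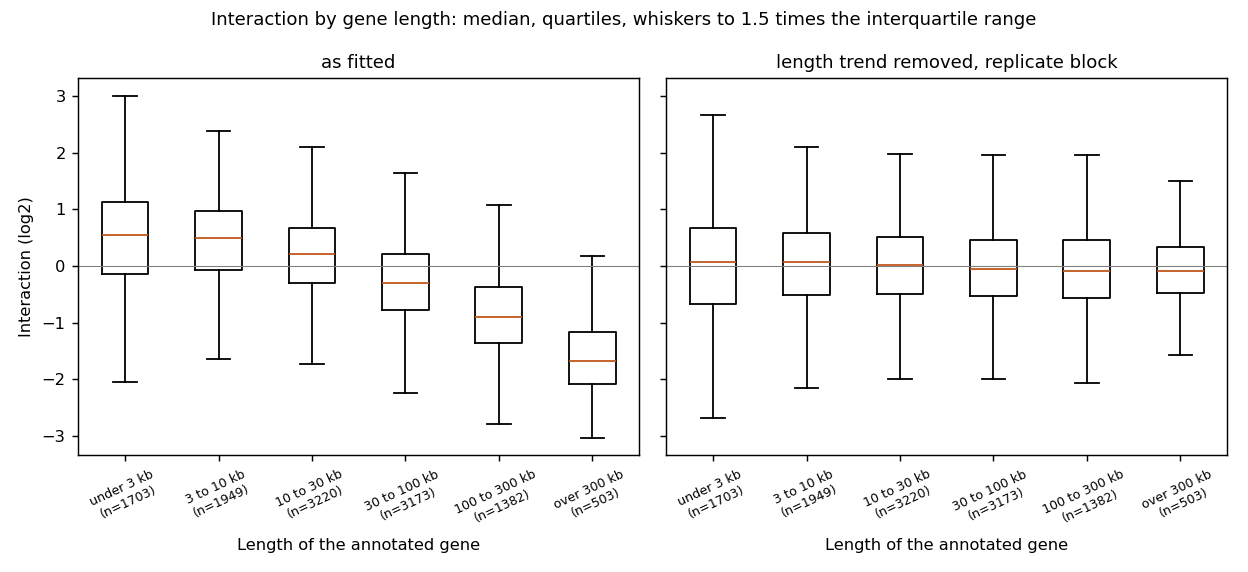
Interaction (log2) of genes in 6 classes of annotated length, as fitted (left) and in the length-and-day fit (right). Boxes give the median and quartiles, and whiskers reach to 1.5 times the interquartile range. As fitted, the median goes from 0.54 in genes under 3 kb to -1.68 in genes over 300 kb, and on the right it lies between -0.09 and 0.07.

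Genes called positive had a median length of 4.911 kb and genes called negative 111.8 kb. Of the 934 genes called in the length-and-day fit, out of 11927 tested, 509 were among the 1015. In that fit the median of the 74 respiratory chain and ATP synthase genes was 0.94, with 26 called positive. The median of the 104 receptor, channel and adhesion genes was -0.36, with 6 called negative. Ionotropic and metabotropic glutamate receptors then had 0 calls in either direction, with medians of -0.37 and -0.35, and Grin2b had -0.77 ± 0.29, adjusted p = 0.102. Kcna1 (-2.09 ± 0.37, adjusted p = 0.000816), Gabra2 (-1.21 ± 0.36, adjusted p = 0.0320) and Bsn (-1.41 ± 0.36, adjusted p = 0.0133) stayed called. Of the other members described above, Gria2, Gria3, Grm3, Gabrb2, Scn2a1, Cacna1e, Nrxn2, Plxna2, Ncam1, Epha5 and Syt1 lost their calls, each moving toward 0 by over 1.5 times.

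**Figure D4:**
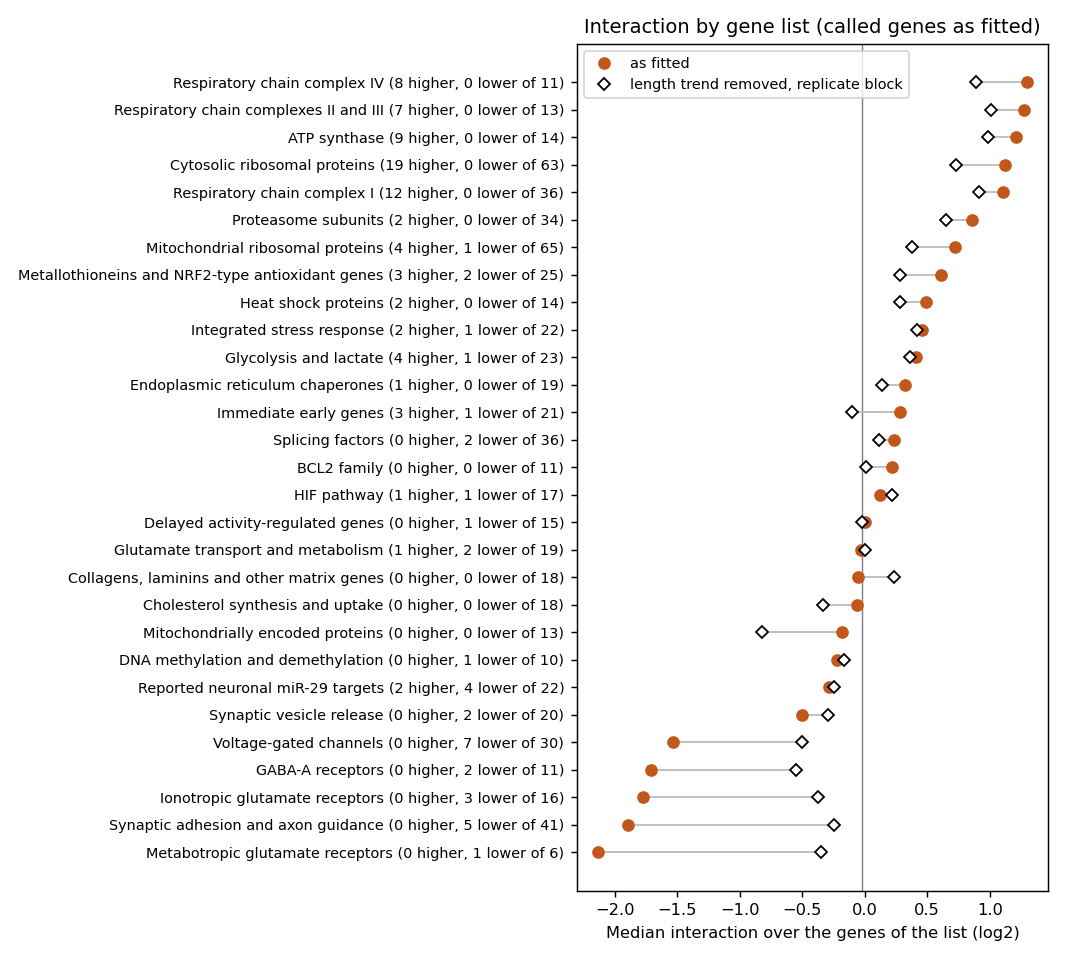
Median interaction (log2) of the gene lists other than those of cell type markers, as fitted (filled circles) and in the length-and-day fit (open diamonds). Numbers beside each name are genes called positive (higher) and negative (lower) as fitted, of those tested, and the vertical line is the median of all genes. The lists of respiratory chain complexes stay between 0.89 and 1.01, and the medians of ionotropic and metabotropic glutamate receptors move from -1.78 and -2.13 to -0.37 and -0.35.

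Glutamate transport and metabolism genes, which clear and recycle the transmitter, had 1 positive and 2 negative calls of 19 (median -0.03). The shares of all genes were 4.72% and 3.66%. Slc1a2, the main glutamate transporter of forebrain (chromosome 2, 102658659 to 102790784), measured 37.8 and 24.9 CPM in sham-empty, 57.6, 58.7 and 55.2 in OGD-empty, 35.6, 50 and 32.1 in sham-miR-29 and 30.5, 26 and 17.8 in OGD-miR-29. OGD-empty was above all other libraries. The OGD response was 0.90 ± 0.27 under the empty virus and -0.63 ± 0.23 under the miR-29 virus, an interaction of -1.53 ± 0.36, adjusted p = 0.0158. It lost its call in the length-and-day fit (-0.91 ± 0.32, adjusted p = 0.0715). Slc7a11, the cystine-glutamate exchanger, measured 5.97 and 5.21 CPM in sham-empty, 17, 18.5 and 22.5 in OGD-empty, 6.83, 8.07 and 4.89 in sham-miR-29 and 8.27, 5.91 and 9.13 in OGD-miR-29, with OGD-empty above all others. Its interaction of -1.51 ± 0.47 was just past the threshold (adjusted p = 0.0498), was 0.0517 by adjusted p with the replicate block, and was -0.027 ± 0.54, adjusted p = 0.985 in the length-and-day fit. Slc25a18, a mitochondrial glutamate carrier, was positive (1.24 ± 0.32, adjusted p = 0.0242, neighbour Atp6v1e1). Slc1a3, the glial glutamate transporter, was not called (-0.36 ± 0.35, adjusted p = 0.522).

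Of 25 metallothioneins and NRF2-type antioxidant genes 3 were called positive and 2 negative (median 0.61), and 1 and 1 in the length-and-day fit (median 0.28). The shares of all genes were 4.72% and 3.66%, and 4.44% and 3.39% in that fit. Mt3, the metallothionein typical of brain, measured 13.9 and 14.5 CPM in sham-empty, 7.41, 6.32 and 6.97 in OGD-empty, 10.6, 9.61 and 10.5 in sham-miR-29 and 14.3, 16.9 and 13.9 in OGD-miR-29. OGD-empty was below all others, and the interaction was 1.57 ± 0.37, adjusted p = 0.0163. The hydrogen peroxide scavengers Prdx2 (1.28 ± 0.32, neighbour Junb) and Txn1 (1.53 ± 0.40) were positive. Mt3 (0.98 ± 0.39, adjusted p = 0.119) and Txn1 (1.14 ± 0.40, adjusted p = 0.0744) lost their calls in the length-and-day fit, and Prdx2 stayed called. Nfe2l2, which encodes the NRF2 factor, was called negative, but sham-empty held 3 counts in all against 85 in OGD-empty, a ratio of 7.34 per effective library size with a 95% counting interval of 2.43 to 36.3, and has Hnrnpa3 as a neighbour. Its fitted interaction of -3.19 ± 0.83 was -8.04 without sham-empty replicate 1 and -1.82, adjusted p = 0.239 without sham-empty replicate 2. Mt1 measured 25.9 and 23.2 CPM in sham-empty, 44.3, 35.7 and 45.6 in OGD-empty, 24.6, 14.6 and 20.8 in sham-miR-29 and 77.7, 85.9 and 50 in OGD-miR-29. OGD raised Mt1 under the miR-29 virus (1.83 ± 0.23, adjusted p = 0.000743). Under the empty virus the response was 0.78 ± 0.28 (adjusted p = 0.103), and the difference was not called (1.05 ± 0.36, adjusted p = 0.0700). Mt2 was not called either (0.98 ± 0.35, adjusted p = 0.0803, neighbour Mt1).

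Immediate early genes are switched on by activity and stress before new protein is made. Of 21 such genes 3 were called positive and 1 negative (median 0.28), against 4.72% and 3.66% of all genes. The length-and-day fit called 0 positive and 3 negative (median -0.10), and none was called without either sham-empty library, with a median of -0.03 without replicate 2. Fosl2, an AP-1 subunit (chromosome 5, 32135801 to 32157842), measured 28.8 and 27.2 CPM in sham-empty, 32.1, 34.8 and 36.5 in OGD-empty, 36, 59.6 and 50.4 in sham-miR-29 and 27, 22.8 and 16.8 in OGD-miR-29. The sham-miR-29 libraries overlapped OGD-empty, and the OGD-miR-29 libraries were below all others. The OGD response was 0.30 ± 0.27 under the empty virus and -1.11 ± 0.22 under the miR-29 virus, an interaction of -1.40 ± 0.34, adjusted p = 0.0198. It stayed called in the length-and-day fit (-1.56 ± 0.33, adjusted p = 0.00378). Junb, another AP-1 subunit, was positive (1.06 ± 0.30, neighbour Prdx2), as were Btg2, an inhibitor of cell division (1.39 ± 0.43), and Ier3 (1.42 ± 0.44, neighbour Flot1). In the length-and-day fit Junb (0.68 ± 0.27, adjusted p = 0.115), Btg2 (0.91 ± 0.46, adjusted p = 0.222) and Ier3 (0.80 ± 0.45, adjusted p = 0.279) lost their calls. Without sham-empty replicate 2, Ier3 was at 0.77, adjusted p = 0.540. Fos (0.28 ± 0.38, adjusted p = 0.666) and Arc (0.39 ± 0.44, adjusted p = 0.596), both induced by synaptic activity, were not called. Of 15 delayed activity-regulated genes 1 was called, Homer1, a scaffold of the postsynaptic density (-1.18 ± 0.30, adjusted p = 0.0213), which was -0.55 ± 0.28, adjusted p = 0.227 in the length-and-day fit. Rgs2, which dampens G-protein signals, had 1.02 ± 0.35 without a call (adjusted p = 0.0673, 0.0242 with the replicate block).

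In the integrated stress response, 2 of 22 genes were called positive and 1 negative (median 0.46), against 4.72% and 3.66% of all genes. The negative one was Slc7a11. Ddit3, which encodes the CHOP factor (chromosome 10, 127290774 to 127296288), measured 37.8 and 37.6 CPM in sham-empty, 25.8, 26.6 and 27.9 in OGD-empty, 26.2, 23.8 and 32.9 in sham-miR-29 and 42.6, 46.1 and 63.5 in OGD-miR-29. Each OGD-miR-29 library was above all the other libraries, while OGD-empty lay below sham-empty. The OGD response was -0.50 ± 0.24 under the empty virus and 0.86 ± 0.20 under the miR-29 virus, an interaction of 1.36 ± 0.32, adjusted p = 0.0157. The gene shares its region with Mars, a tRNA synthetase gene, so its value is uncertain. Atf4, the central factor of this response, had 1.07 ± 0.29, adjusted p = 0.0295 (neighbour Rps19bp1), and 0.57 ± 0.28, adjusted p = 0.210 in the length-and-day fit. Atf3 was not called (0.93 ± 0.39, adjusted p = 0.126), though it was in that fit (1.29 ± 0.39, adjusted p = 0.0353).

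Of 19 endoplasmic reticulum chaperones 1 was called, against 8.38% of all genes in either direction. It was the disulfide isomerase Pdia4 (2.10 ± 0.38, adjusted p = 0.00866), which holds the Y RNA Rny1 in its region. Herpud1 had 1.06 ± 0.37 (adjusted p = 0.0701, 0.0496 with the replicate block). Heat shock genes had 2 positive calls of 14 (median 0.49), against 4.72% of all genes. Hspa8, the constitutive Hsc70 chaperone, measured 38.8 and 36.5 CPM in sham-empty, 30, 26.6 and 35.9 in OGD-empty, 36, 27.7 and 37 in sham-miR-29 and 57.9, 61.4 and 67.3 in OGD-miR-29. Its OGD-miR-29 libraries were the highest of the 11, and the interaction was 1.17 ± 0.30, adjusted p = 0.0228, with Snord14c as a neighbour. Hspa1b, an inducible HSP70 gene, had 1.75 ± 0.53 (neighbour Gm8696) and lost its call in the length-and-day fit (1.42 ± 0.53, adjusted p = 0.0918). In the hypoxia-inducible factor pathway Mif was positive (1.60 ± 0.46) and Arnt, the partner of the oxygen-regulated subunits, negative (-2.17 ± 0.66), of 17 genes (median 0.12). The shares of all genes were 4.72% and 3.66%. Mif and Arnt lost their calls in the length-and-day fit, with 0.90 ± 0.47, adjusted p = 0.242 for Mif and -1.82 ± 0.70, adjusted p = 0.106 for Arnt. Vegfa, a classical target of that pathway, was not called (-0.31 ± 0.51, adjusted p = 0.724).

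Over all 12119 genes edgeR called 8.38% in either direction, and 3379 had an unadjusted p under 0.05. For lists as small as those that follow, 0 calls is not far from 8.38%. Of 11 genes of the BCL2 family, which set the threshold of apoptosis, none was called (0 by edgeR and by each of DESeq2 and limma-voom). In edgeR 4 had an unadjusted p under 0.05, and the median was 0.22. Bax (1.01 ± 0.35, adjusted p = 0.0690, neighbour Gys1) was nearest to the threshold. The BH3-only genes Bbc3 (1.15 ± 0.52, adjusted p = 0.158, neighbour Sae1) and Bcl2l11 (-1.25 ± 0.57, adjusted p = 0.156) had values of opposite sign. Of 18 matrix genes 0 were called by each of the tools, and 2 had an unadjusted p under 0.05 in edgeR (median -0.06). Fbn1, fibrillin, had -2.21 ± 0.74, adjusted p = 0.0635 (0.0325 with the replicate block), and Col4a1, a basement membrane collagen, had 0.37 ± 0.41, adjusted p = 0.581 (neighbour Col4a2). Of 18 cholesterol genes 0 were called by each of the tools, 5 had an unadjusted p under 0.05 in edgeR (median -0.06), and their regulator Srebf2 had -1.24 ± 0.40, adjusted p = 0.0571 (0.0299 with the block). Of 36 splicing factors 2 were called negative (median 0.23), a share near the 3.66% of all genes. These were Sf3a1, of the U2 particle (-2.23 ± 0.54, adjusted p = 0.0179, neighbour Tbc1d10a), and the neuronal Nova2 (-2.04 ± 0.52, adjusted p = 0.0213, neighbour Gm26821). Both stayed called in the length-and-day fit.

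Reported neuronal targets of miR-29 had 2 positive and 4 negative calls of 22 (median -0.29), 2 positive and 8 negative with the replicate block, and 2 positive and 1 negative in the length-and-day fit. The shares of all genes in these fits were 4.72% and 3.66%, 7.33% and 8.03%, and 4.44% and 3.39%. The list was compiled from published work and its members were not tested here as targets. Tet2, an enzyme that oxidises methylcytosine (chromosome 3, 133463679 to 133545139), whose seed site is shown above, measured 8.95 and 13.3 CPM in sham-empty, 19.8, 30.3 and 18.2 in OGD-empty, 14, 18.8 and 11.3 in sham-miR-29 and 10.7, 11.8 and 7.21 in OGD-miR-29. OGD-empty replicate 3 overlapped the sham-miR-29 group, and the OGD-miR-29 libraries reached into the range of sham-empty. The OGD response was 0.97 ± 0.34 under the empty virus and -0.53 ± 0.28 under the miR-29 virus, an interaction of -1.50 ± 0.44, adjusted p = 0.0400. Tet2 was the only call among 10 DNA methylation and demethylation genes (median -0.23), which became 3 with the replicate block and 0 in the length-and-day fit, where Tet2 was -1.16 ± 0.37, adjusted p = 0.0505. DESeq2 called 1 of them and limma-voom 0, and 4 had an unadjusted p under 0.05 in edgeR, against 3379 of all 12119 genes. Tet1 (-1.43 ± 0.46, adjusted p = 0.0555, 0.0386 with the block) and Tet3 (-1.35 ± 0.45, 0.0664 and 0.0208, neighbour Bola3) were the others called with the block.

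Dnmt3a, a de novo DNA methyltransferase with 5 seed sites, measured 55.7 and 49.2 CPM in sham-empty, 53.4, 53.3 and 52 in OGD-empty, 42.1, 59.2 and 37.5 in sham-miR-29 and 40.2, 45.3 and 40.9 in OGD-miR-29. OGD-empty lay above OGD-miR-29, the sham-miR-29 libraries spanned both, and the interaction was -0.15 ± 0.30, adjusted p = 0.779. The base-excision enzyme Tdg was not called (1.05 ± 0.64, adjusted p = 0.292). The histone deacetylase Hdac4 (-1.81 ± 0.44, adjusted p = 0.0192), the neuron navigator Nav3 (-1.56 ± 0.39, adjusted p = 0.0209) and the beta-secretase Bace1 (-1.35 ± 0.34, adjusted p = 0.0224, neighbour Rnf214) were negative. In the length-and-day fit Bace1 stayed called (-1.48 ± 0.34, adjusted p = 0.00706), Hdac4 did not (-0.69 ± 0.32, adjusted p = 0.191), and Nav3, a gene of 775 kb, was at 0.069 ± 0.34, adjusted p = 0.930. The voltage-dependent anion channel Vdac1, which held 0 seed sites, was positive (0.98 ± 0.28, adjusted p = 0.0337), as was Arpc3, a subunit of the actin-nucleating ARP complex (1.44, adjusted p = 0.0370). Arpc3 was named after its value was seen.

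The seed site TGGTGCT was found in the longest 3′ UTR of 1690 of 10078 genes (16.8%). It was present in 28.1% of 385 genes called negative and 5.26% of 380 called positive, whose 3′ UTRs had median lengths of 3035 and 522 nt, against 1312 nt over all. Among genes with a 3′ UTR of 4 kb or more, 13.6% of those with a site and 14.3% of those without were called negative. The shares were 4.91% and 5.10% at 2 to 4 kb, 1.89% and 2.68% at 1 to 2 kb, and 2.37% and 1.22% under 1 kb, the last with 5 and 47 genes. The differences between these shares were not tested. The search covered the transcribed strand alone.

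The 10 most negative genes of the naming rule were long, from 91.35 kb to 663.9 kb, and some had few counts. Rfx3, a factor of cilia genes (chromosome 19, 27761721 to 28011166), measured 14.9 and 13.9 CPM in sham-empty, 31.3, 82.2 and 42.3 in OGD-empty, 26.2, 30 and 15.2 in sham-miR-29 and 11.4, 10.6 and 12 in OGD-miR-29. All OGD-empty libraries were above all others, and the OGD-miR-29 libraries were the lowest. The interaction was -2.88 ± 0.54, adjusted p = 0.00985, and -1.75 ± 0.36, adjusted p = 0.00297 in the length-and-day fit. Nfkb1, a subunit of NF-kappa-B, had summed counts of 0 in sham-empty, 45 in OGD-empty, 39 in sham-miR-29 and 23 in OGD-miR-29. With a floor of 3 counts put in place of the 0 over sham-empty, OGD-empty was 3.88-fold higher. The 95% counting interval of this ratio, taken from the counts without the floor, began at 3.03. The fitted interaction of Nfkb1 (-7.69) depends on the zeros, and with the floor it was -2.86.

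Hdx had 1 count over sham-empty and 60 over OGD-empty, a ratio of 15.5 with a 95% counting interval of 2.68 to 624, and Adam19, a metalloprotease, had 2 and 48, a ratio of 6.21 (1.63 to 52.8). The lincRNA Rmst, known from neurogenesis, had -4.03 ± 1.15 with 4 counts over sham-empty. Without sham-empty replicate 2 the fitted values of Hdx and Rmst were -7.93 and -9.21, neither called. Inpp5a, an inositol phosphatase, measured 1.99 and 3.47 CPM in sham-empty, 11.3, 27.1 and 15.5 in OGD-empty, 5.69, 11.1 and 6.69 in sham-miR-29 and 6.80, 5.12 and 4.33 in OGD-miR-29, and its interaction was -3.0 ± 0.66, adjusted p = 0.0122. Both sham-empty libraries were the lowest of the 11. Man2a1, a Golgi mannosidase (-2.88 ± 0.63), Xylt1, a xylosyltransferase (-2.85 ± 0.67), Cdh10, a cadherin (-2.84 ± 0.73), and Cdkal1, a tRNA-modifying enzyme (-2.88 ± 0.77), were the remaining ones. Of the 10, Cdkal1 alone lost its call in the length-and-day fit (-1.38 ± 0.51, adjusted p = 0.0896).

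The 10 most positive were from 0.101 kb to 30.04 kb long, and 7 of them were non-coding. Gm22513, an snRNA gene, measured 4365 and 2372 CPM in sham-empty, 629, 1106 and 553 in OGD-empty, 3339, 1656 and 1973 in sham-miR-29 and 2830.2, 2115 and 4221 in OGD-miR-29. OGD-empty was below all other libraries, and the interaction was 2.54 ± 0.52, adjusted p = 0.0111. Vaultrc5, a vault RNA (2.46 ± 0.56), Gm25099, an snRNA gene (2.81 ± 0.72), Gm24975, annotated as a miRNA (2.85 ± 0.43), and the processed pseudogenes Gm13836 (2.35 ± 0.47), Gm13453 (2.87 ± 0.76) and Rpl39-ps (2.65 ± 0.62) were also among them. A pseudogene can share reads with its parent, so these are uncertain. The coding genes were Tomm7, part of the mitochondrial import pore (2.30 ± 0.51, adjusted p = 0.0138), the co-chaperone Dnajc12 (2.30 ± 0.69, adjusted p = 0.0417) and the nuclease Dnase1l3 (2.20 ± 0.68, adjusted p = 0.0477). All 10 stayed called in the length-and-day fit. Without sham-empty replicate 2, Dnajc12 was at 0.73, adjusted p = 0.812, and Gm13453 at 1.64, adjusted p = 0.493.

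By class of gene, 72 of 257 snoRNA genes were called positive and 1 negative, against 4.72% and 3.66% of all genes, and 95.7% of snoRNA genes had a neighbour over 0.5 of their count, against 59.7% of all genes. Of 78 snRNA genes 17 were positive and 0 negative, and 91.0% had such a neighbour. Of 310 processed pseudogenes 36 were positive and 3 negative, and 64.2% had such a neighbour. Genes annotated as miRNA had 10 positive and 5 negative calls of 299, and 97.7% had such a neighbour. Of all genes under 3 kb, 12.9% were called positive and 0.881% negative. Protein-coding genes were called evenly, 385 positive and 389 negative of 10187.

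Markers of cell types were checked against the label of cortical culture. All 12 neuron markers were tested and none was at 0 in any library, with a summed level of 1059 to 1094 CPM in sham-empty, 1275 to 1663 in OGD-empty, 1026 to 1214 in sham-miR-29 and 899 to 1045 in OGD-miR-29. The OGD-empty sums were above all others, although 6 of the 12 markers fell with OGD under the empty virus (median response 0.08). Of the 12 markers 2 were called negative, Syt1 and Dcx, a microtubule protein of young neurons (-1.30 ± 0.35, adjusted p = 0.0290), and 0 positive (median -0.12). In the length-and-day fit 2 were called positive and 0 negative (median 0.04), and Dcx was -0.92 ± 0.30, adjusted p = 0.0556. Interneuron markers had 0 called of 10 (median -0.58), astrocyte markers 0 of 10 (-0.25), oligodendrocyte lineage markers 0 of 6 (0.35), microglia markers 0 of 5 (0.80) and fibroblast and mural markers 0 of 3 (0.24), by edgeR. Those lists had 3, 1, 1, 1 and 1 genes at an unadjusted p under 0.05, against 3379 of all 12119 genes. Of all genes edgeR called 8.38% in either direction. DESeq2 called 1 microglia marker positive and limma-voom none of these lists' genes. None of the 8 endothelial markers was in the test.

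The lowest adjusted p of those lists belonged to Reln (-0.87 ± 0.33, adjusted p = 0.0956, 0.0461 with the block), Aqp4 (-1.92 ± 0.83, adjusted p = 0.135), Sox10 (1.26 ± 0.59, adjusted p = 0.167, neighbour Polr2f), Aif1 (1.88 ± 0.59, adjusted p = 0.0550, 0.0263 with the block, neighbour Prrc2a) and Vtn (1.19 ± 0.55, adjusted p = 0.161, neighbour Poldip2). The 5 microglia markers summed to 43.4 to 54.7 CPM in sham-empty, 26.8 to 34.4 in OGD-empty, 39.97 to 49.7 in sham-miR-29 and 41.5 to 49.5 in OGD-miR-29, lowest in OGD-empty. Astrocyte markers summed to 112 to 122, 101 to 121, 107 to 155 and 139 to 155 CPM in the same order of groups. A neighbour held over 0.5 of the count for all 5 microglia markers and for 5 of the 10 astrocyte markers, so these sums are uncertain. Of 11 listed microglia markers only 5 were in the test, without P2ry12 and Tmem119 among others. Of 5 tested markers of dividing cells Kif23 was positive (1.63 ± 0.34, neighbour Rplp1) and Mki67 negative (-2.49 ± 0.72, neighbour Ptpre). Mki67 was at -4.11 without sham-empty replicate 1 and -1.43 without sham-empty replicate 2, not called in either. The part of cell composition in the interaction was not tested.

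**Figure D5:**
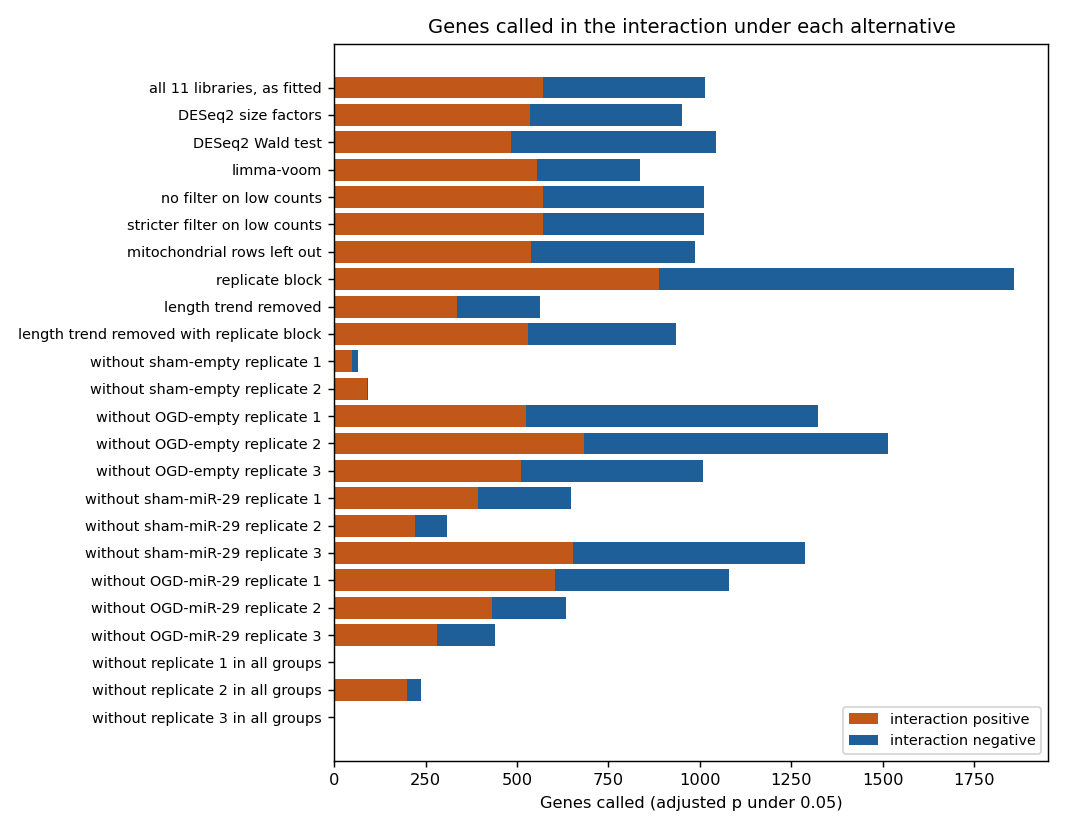
Number of genes called in the interaction (x axis) as fitted and under each alternative, split by direction. The fit restricted to genes alone in their region is not drawn, since it tested only 1468 genes. The count is 1015 with all 11 libraries, 1861 with the replicate block, 64 and 93 with a sham-empty library left out, and 0 and 3 without replicate 1 or 3 in all groups.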

How the data were processed

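Total RNA, depleted of ribosomal RNA, was sequenced from mouse cortical cultures in 4 groups. The authors deposited whole-number read counts per gene for 12145 genes, and the submitters' processing notes name STAR 2.5.0a, featureCounts 1.4.3-p1, edgeR and mm10, with no role or order. The annotation and counting region are not given in the sources used here. Values in the column of sham-empty replicate 3 summed to 22859, and 92.5% of its values equalled the number of same-strand annotated genes within the gene and 10 kb downstream, so it was left out. That region was then taken, as an inference, for counting neighbours, on either strand. The authors' deposited tables of 2 other comparisons were not used, and 0 columns of per-sample values were unmapped.

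Coordinates are from GENCODE M21 (GRCm38). Of the 12145 genes 11356 matched by symbol and 597 by an older symbol, 173 did not match and 19 had turned into dates.

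Group means of the 11 libraries were fitted with edgeR 4.0.16 (TMM, filterByExpr, robust quasi-likelihood F test; R 4.3.3). P-values were adjusted over all 12119 genes, with an adjusted p under 0.05 called. Positive and negative refer to the sign of the interaction. Values after ± are standard errors, and interactions and OGD responses are log2 fold changes. CPM are TMM-scaled and not divided by gene length, so they are compared within a gene. Alternatives were DESeq2 1.42.0, limma-voom (limma 3.58.1), DESeq2 size factors, other filters, mitochondrial rows left out, a replicate block, removal of each library's lowess trend (span 0.3, prior count 2) on gene length without the block or with it (the length-and-day fit), genes alone in their region, and leaving out libraries.

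Replicate numbers mark the day of dissection, per the series' design text. Deviations from group means correlated by -0.09 to 0.23 (median 0.01) over 15 same-number pairs and by -0.24 to 0.20 over 30 pairs of different numbers. Deviations sum to 0 within each group, so these ranges are not independent and cannot show whether a shared day matters. On simulated counts of 11882 genes the fit called 46% of changes of -2, 2% of -1, 8% of 1 and 44% of 2 (log2), with 2 false calls of 11682. Each simulated gene varied independently around the same mean in all groups, apart from the changes set in better-counted genes. No trend shared by the genes of a library, such as that with length, was simulated. The number of false calls under such a trend is therefore not known. Replicates are cultures of separate days. Counting intervals cover counting error only.

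The members and gene lists were chosen with earlier results of these data known. Named genes are the 10 most positive and 10 most negative called genes (matched, no neighbour over 0.5 of the count, at least 2 CPM in a group, same sign on both complete days), up to 4 members of each list by adjusted p, and a fixed set of stress, glutamate and miR-29 genes. Some genes that the rule picks are not reported here.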

Additional observations from a re-analysis of the deposited data

Results flagged for a closer look

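The OGD response differed between the viruses, by the test of the interaction itself, for 1015 genes. Among the genes named in the text, the interaction (log2) was positive for Gm13453 (2.87), Gm24975 (2.85), Gm25099 (2.81), Rpl39-ps (2.65), Gm22513 (2.54), Vaultrc5 (2.46), Gm13836 (2.35), Dnajc12 (2.30), Tomm7 (2.30), Dnase1l3 (2.20), Ndufv3 (1.69), Ndufb5 (1.68), Ndufb10 (1.67), Ndufa4 (1.31), Uqcrh (1.61) and Sdhd (1.45). Positive values were also found for Uqcr10 (1.74), Uqcrc2 (1.34), Cox8a (1.46), Cox7a2 (1.51), Cox6c (1.48), Cox4i1 (1.3), Atp5e (2.39), Atp5h (2.14), Atp5k (2.24), Atp5g3 (1.54), Pkm (1.21), Tpi1 (1.43), Aldoa (0.98), Eno2 (1.05), Rps3 (2.21) and Rps2 (1.62). Further positive values were those of Rplp1 (1.67), Rpl7 (2.03), Mrpl15 (1.62), Mrpl55 (1.02), Mrpl32 (2.20), Psmb7 (1.13), Psma1 (1.48), Slc25a18 (1.24), Mt3 (1.57), Prdx2 (1.28), Txn1 (1.53), Junb (1.06), Btg2 (1.39), Ier3 (1.42), Ddit3 (1.36) and Atf4 (1.07). The remaining positive genes were Pdia4 (2.10), Hspa8 (1.17), Hspa1b (1.75), Mif (1.60), Vdac1 (0.98), Kif23 (1.63) and Arpc3 (1.44).

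The interaction was negative for Nfkb1 (-7.69), Hdx (-4.62), Rmst (-4.03), Adam19 (-3.64), Inpp5a (-3.0), Rfx3 (-2.88), Man2a1 (-2.88), Cdkal1 (-2.88), Xylt1 (-2.85), Cdh10 (-2.84), Mrps27 (-1.70), Grin2b (-2.20), Gria2 (-1.30), Gria3 (-2.24), Grm3 (-2.18) and Gabrb2 (-1.79). Negative values were also found for Gabra2 (-1.94), Scn2a1 (-1.41), Cacna1e (-2.25), Kcna1 (-1.53), Nrxn2 (-1.56), Plxna2 (-1.65), Ncam1 (-1.61), Epha5 (-2.25), Bsn (-1.82), Syt1 (-1.97), Slc1a2 (-1.53), Slc7a11 (-1.51), Nfe2l2 (-3.19), Fosl2 (-1.40) and Homer1 (-1.18). Further negative values were those of Arnt (-2.17), Tet2 (-1.50), Hdac4 (-1.81), Nav3 (-1.56), Bace1 (-1.35), Sf3a1 (-2.23), Nova2 (-2.04), Dcx (-1.30), Mki67 (-2.49) and Slc16a7 (-1.68). The values of Nfkb1, Hdx, Adam19, Nfe2l2 and Rmst rest on 0 to 4 counts over the sham-empty libraries.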

How the results depend on the processing

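The interaction called 1015 genes. It called 952 to 1044 with DESeq2 size factors, other filters, mitochondrial rows left out or DESeq2, 836 with limma-voom, and 934 in the length-and-day fit. The other filters, including the one meant to be stricter, kept all 12145 genes, so they do not show how the calls depend on low counts. With the replicate block alone 1861 genes were called, and of the 95 called genes of the naming rule only Slc7a11 lost its call under the pairing. The count was 564 with the length trend removed, and 175 of 1468 genes alone in their region were called. Leaving out 1 library gave 64 to 1516 calls. Without replicate 1, 2 or 3 in all groups there were 0, 237 and 3, and with 0 edgeR calls 2613 genes had an unadjusted p under 0.05. The causes were not tested. Without the length trend, and then with the block as well, signs reversed for mt-Nd1 (-0.013, -0.18), Nav3 (0.000377, 0.069), Reln (0.32, 0.35), Slc1a3 (0.058, 0.17), Fos (-0.19, -0.22), Dnmt3a (0.46, 0.43) and Arc (-0.071, -0.27). Leaving out 1 library moved Vegfa from -1.27 to 0.49, Fos from -0.12 to 0.56, Col4a1 from -0.33 to 0.74 and Arc from -0.0054 to 0.61, the sign reversed in each without sham-empty replicate 2. It moved Dnmt3a from -0.28 to 0.064, reversed without sham-miR-29 replicate 2. Without replicate 2 in all groups these were at 0.43, -0.67, -0.58, -0.22 and, for Dnmt3a, 0.068. Of these genes only Nav3 was called. The lowest counts outside mitochondrial rows, in sham-empty, limit the OGD response under the empty virus.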
